A study of Mus musculus with 12 samples.

Results

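Dnaja1, Bag1, Dnajb5, Vcp, Ube2j1, Ubap1 and Ubap2 are 7 mouse genes of protein folding and of ubiquitin-linked protein turnover that all lie in the first 60 Mb of chromosome 4. They were taken by name as 7 of the 53546 gene rows in each library, and all 7 passed the filter on low counts. RNA was sequenced from serum of normal mice and of mice with colorectal cancer, and the labels give no strain, age, tumour model or treatment for either. The labels call the samples biological replicates, 6 per group, but 2 of the colorectal cancer files held identical values and were counted as 1 library, called replicate 6 here. The comparison therefore has 6 normal and 5 colorectal cancer libraries, and it asks which of these transcripts differ in level in serum of animals with the tumour.

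Hsp70 chaperones bind unfolded stretches of protein and release them again in a cycle driven by ATP. J-domain proteins of the Hsp40 family, such as Dnaja1 and Dnajb5, bring clients to Hsp70 and start the hydrolysis of ATP, and Bag1 lets the nucleotide and the client go. Proteins that cannot be folded are marked with ubiquitin by E2 and E3 enzymes, pulled out of membranes or complexes by the ATPase Vcp, and degraded by the proteasome, while the ESCRT machinery sorts ubiquitinated membrane proteins into lysosomes. Developing red blood cells depend on these routes as they lose their organelles.

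Totals ran from 2889205 to 20774889 counts per library, and the Olfr648 row (an olfactory receptor) took 7969078 to 17324370 of them in 2 normal and 4 colorectal cancer libraries, against 3247 to 5150 in the remaining 5. Without that row, totals were 2885958 to 4089488 in normal serum and 3727908 to 7033966 in colorectal cancer. Across the series 42.7% of 20970 protein-coding rows outside this stretch were at 0 in every library, whereas 34 of 324 inside it (10.5%) were. Among the 40 nearest protein-coding neighbours of each of the 7 genes, 5.0% to 15.0% were at 0. It is not established that a row measures the gene of its name. Values per library are TMM-scaled CPM, read counts divided by a library size that is corrected for composition.

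Of the 7 genes, 2 were lower in colorectal cancer and 0 were higher, by edgeR's quasi-likelihood test (adjusted p under 0.05, Benjamini-Hochberg over 9565 rows). Dnaja1 fell 1.78-fold and Bag1 2.01-fold, and the other 5 did not pass. Over all 9565 rows 1.45% were lower and 0.565% higher. At an unadjusted p under 0.05, 3 of the 7 were lower and 0 higher, where 5.65% of all rows were lower and 5.72% higher, and 11.1% and 6.91% of tested rows in the first 60 Mb of chromosome 4. DESeq2 called 3 of the 7 lower and 0 higher, against 2.66% and 1.81% of all rows. The median log2 fold change of the 7 was -0.16, against 0.04 over all rows tested and 0.01 over the 217 tested protein-coding rows of the first 60 Mb of chromosome 4. In that stretch 13 of 217 rows (5.99%) were lower and 1 (0.461%) was higher. In Dnaja1, Bag1 and Ubap1, every colorectal cancer library lay below every normal one in TMM-scaled CPM. This held for 2.10% of all rows and for 5.99% of rows in the stretch.

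**Figure D1:**
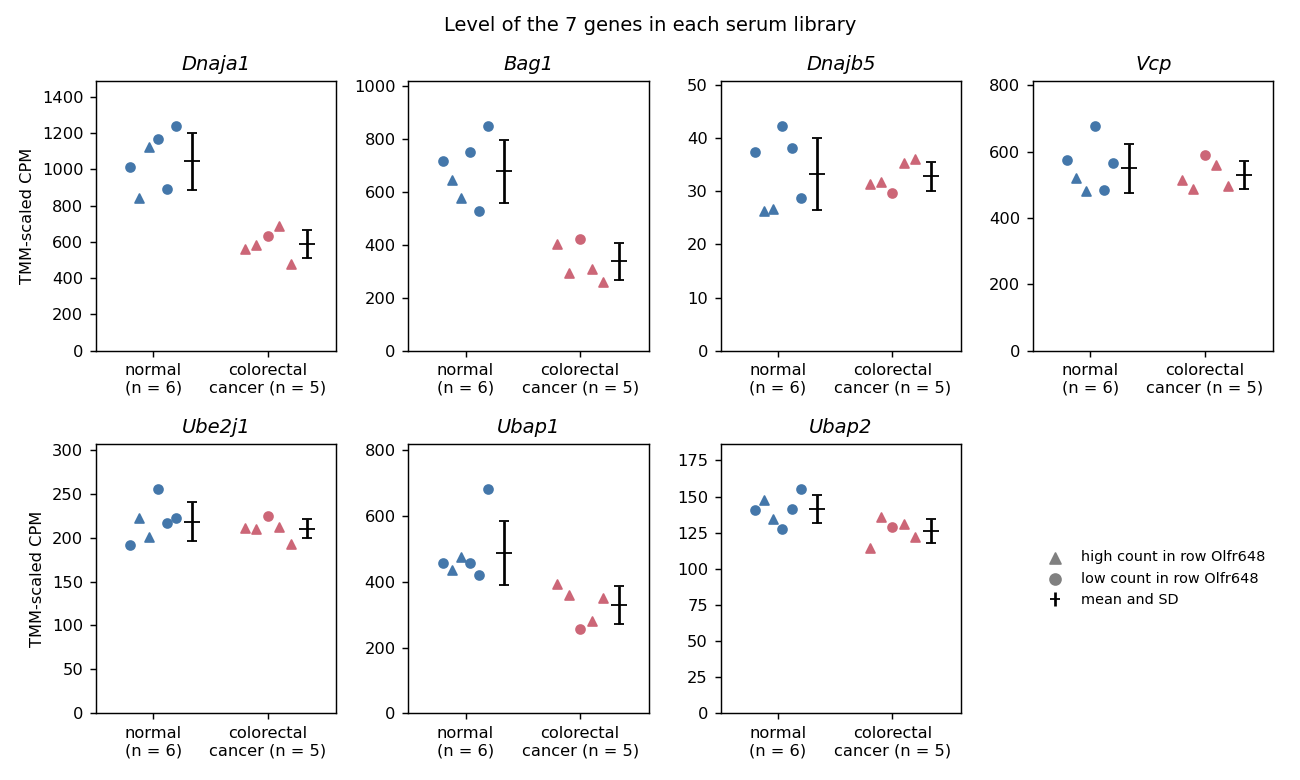
TMM-scaled CPM of each gene on linear axes from 0, 1 point per library, for 6 normal and 5 colorectal cancer libraries, with mean and SD in black; triangles and circles mark libraries with high and low Olfr648 counts. The groups are apart for Dnaja1, Bag1 and Ubap1 and overlap for Dnajb5, Vcp, Ube2j1 and Ubap2.

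Dnaja1 encodes a J-domain protein of the cytosol (mm10, GENCODE M21, chr4:40722150-40737149, plus strand). Its level in normal libraries 1 to 6 was 1012, 845, 1123, 1165, 892 and 1240 CPM. In colorectal cancer libraries 1, 2, 3, 4 and 6 it was 559, 583, 634, 687 and 481 CPM. On this scale the lowest normal library therefore stood above the highest colorectal cancer library, with no overlap. The means were 1046 ± 157 and 589 ± 77.7 CPM (SD, n = 6 and 5), a log2 fold change of -0.83 (SE 0.12, 95% confidence interval -1.09 to -0.56, adjusted p = 0.00588 by edgeR). Exons of Dnaja1 share 608 bases with exons of Smu1 on the opposite strand, and how the counting treated strand is not given here, so reads from that overlap cannot be assigned. The Smu1 row, named after its values were seen, differed by -0.09 on the log2 scale (SE 0.11, adjusted p = 0.874).

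Bag1, the nucleotide exchange factor of Hsp70, lies 199 kb beyond the end of Dnaja1 on the other strand (chr4:40936398-40948294, minus strand). Normal libraries 1 to 6 held 716, 645, 576, 750, 526 and 848 CPM. Colorectal cancer libraries 1, 2, 3, 4 and 6 held 404, 293, 421, 307 and 260 CPM. As for Dnaja1, no library of one group reached into the other. The means were 677 ± 119 and 337 ± 71.4 CPM (SD, n = 6 and 5), a log2 fold change of -1.01 (SE 0.16, 95% confidence interval -1.34 to -0.67, adjusted p = 0.00656 by edgeR).

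The direction of both genes is relative to the other rows of a library. The raw counts of Dnaja1 ran from 5246 to 7178 in normal and from 5026 to 9685 in colorectal cancer libraries, and those of Bag1 from 3620 to 4233 and from 3339 to 4863, so on the raw scale the groups overlapped. When the Olfr648 row was dropped and scaling used library totals only (totals alone below), Dnaja1 differed by -0.42 (adjusted p = 0.0242) and Bag1 by -0.60 (adjusted p = 0.00863), both still lower by edgeR. That scaling moved the median of all rows to 0.43, and it called 1.23% of rows lower and 17.0% higher, so that higher rows made up 93.3% of the calls in place of 28.0%. In RNA from serum the source of a transcript is not measured. Fewer source cells, less of a transcript per cell and other changes in what reaches serum cannot be told apart.

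The division of libraries by Olfr648 counts falls unevenly over the groups, so both genes were also read within it. Among the 6 libraries with high Olfr648 counts, Dnaja1 stood at 845 to 1123 CPM in 2 normal and 481 to 687 in 4 colorectal cancer libraries. Among the 5 with low counts it stood at 892 to 1240 in 4 normal libraries and at 634 in the single colorectal cancer one. For Bag1 the corresponding values were 576 to 645 against 260 to 404, and 526 to 848 against 421 CPM. The groups were thus apart on each side of the division, but among the high-count libraries neither gene had an adjusted p under 0.05 (Dnaja1 0.122, Bag1 0.0723 by edgeR). The low-count side has 1 colorectal cancer library, so its values are given as a description. With the division as a covariate over all 11 libraries, Dnaja1 differed by -0.77 and Bag1 by -0.88, each with an adjusted p of 0.0277 by edgeR.

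The promoters of Dnaja1 and Bag1, which both fell, are shown with that of Vcp, which did not pass, because heat shock factor binding sites are known in genes of this pathway. They are from RefSeq on GRCm38.p6, 250 bases before to 50 after an annotated start, 5′ to 3′ on the gene's strand. Dnaja1 has 3 such entries, of which the first is printed (chr4:40722218-40722517, plus strand), Bag1 has 1 (chr4:40948245-40948544, minus strand) and Vcp 1 (chr4:43000458-43000757, minus strand). Capitals mark heat shock element pairs (GAANNTTC or TTCNNGAA), CCAAT boxes and GC boxes (GGGCGG), each searched on both strands, and no marked motif overlaps another in these windows.
Dnaja1: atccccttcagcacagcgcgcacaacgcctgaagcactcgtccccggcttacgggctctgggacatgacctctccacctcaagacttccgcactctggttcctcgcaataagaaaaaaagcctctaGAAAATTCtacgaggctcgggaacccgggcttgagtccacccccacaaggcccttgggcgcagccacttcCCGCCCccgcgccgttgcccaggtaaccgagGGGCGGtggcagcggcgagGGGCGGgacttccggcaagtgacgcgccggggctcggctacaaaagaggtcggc
Bag1: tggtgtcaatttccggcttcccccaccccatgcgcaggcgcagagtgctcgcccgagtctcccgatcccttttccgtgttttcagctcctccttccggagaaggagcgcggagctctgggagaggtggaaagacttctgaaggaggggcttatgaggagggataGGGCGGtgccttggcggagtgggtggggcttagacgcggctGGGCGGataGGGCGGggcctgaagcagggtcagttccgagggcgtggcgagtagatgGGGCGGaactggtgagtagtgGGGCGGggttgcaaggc
Vcp: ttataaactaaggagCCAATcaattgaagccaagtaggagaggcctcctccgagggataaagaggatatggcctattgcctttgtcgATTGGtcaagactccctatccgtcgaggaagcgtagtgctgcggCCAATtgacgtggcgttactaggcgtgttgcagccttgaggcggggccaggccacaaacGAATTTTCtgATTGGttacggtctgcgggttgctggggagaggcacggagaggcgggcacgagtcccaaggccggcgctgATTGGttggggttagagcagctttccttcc
The printed Dnaja1 window holds 1 heat shock element pair, GAAAATTC, beginning 124 bases before the start, and 3 GC boxes. The Bag1 window holds 5 GC boxes and no match to the other 2 motifs. The Vcp window holds 1 heat shock element pair, GAATTTTC, beginning 60 bases before the start, and 5 CCAAT boxes. Of 32851 mouse promoters of this length, 15.1% hold a heat shock element pair, 37.4% a CCAAT box and 35.7% a GC box. The other 2 Dnaja1 entries, which start further downstream, hold 0 heat shock element pairs, 2 CCAAT boxes and 4 GC boxes each. The pair therefore stands in 1 of 3 entries of Dnaja1, in the entry of Vcp and not in that of Bag1, and these matches describe the letters only.

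Dnajb5, a second J-domain protein of the cytosol, lies 20.5 kb from Vcp (chr4:42949814-42959425, plus strand). It was measured at 37.4, 26.3, 26.7, 42.3, 38.1 and 28.8 CPM in normal libraries 1 to 6. The colorectal cancer libraries held 31.4, 31.8, 29.6, 35.4 and 36.1 CPM, all inside the normal range. The means were 33.3 ± 6.84 and 32.9 ± 2.75 CPM (SD, n = 6 and 5), a log2 fold change of -0.02 (95% confidence interval -0.33 to 0.29, adjusted p = 0.987 by edgeR). Differences inside that interval were not detectable at its depth of 143 to 528 counts per library. Its sign differed across the Olfr648 division, with a log2 ratio of means of 0.34 among libraries with high counts and -0.31 among the others.

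A ratio of 2 genes within a library does not depend on how libraries are scaled. Counts of Dnaja1 per count of Dnajb5 were 27.0, 32.0, 41.9, 27.5, 23.3 and 43.0 in the normal libraries. In colorectal cancer they were 17.8, 18.3, 21.3, 19.4 and 13.3, all below the lowest normal library. The mean log2 ratio differed by -0.83 (4.98 ± 0.36 against 4.16 ± 0.25, SD, two-sided exact permutation p = 0.00433 over 462 splits, 0.0173 after Benjamini-Hochberg adjustment over 4 pairs). The ratio of Dnaja1 to Bag1, the 2 genes that fell, was 1.31 to 1.95 in normal and 1.39 to 2.23 in colorectal cancer libraries. That pair differed by 0.19 on the log2 scale (exact permutation p = 0.229, adjusted 0.306), so no difference between the falls of these genes was detected.

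**Figure D2:**
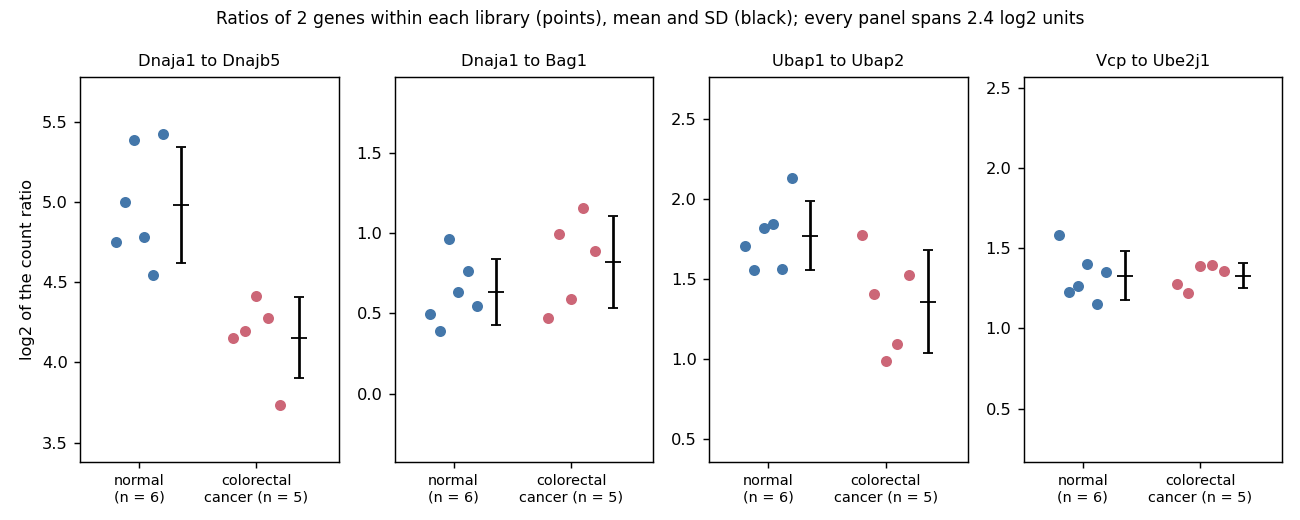
Within-library log2 ratio of counts for 4 pairs of genes, 1 point per library, with mean and SD in black and panels of equal height in log2 units. Dnaja1 to Dnajb5 is lower in all 5 colorectal cancer libraries than in all 6 normal ones, and the other 3 pairs overlap.

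Other genes of the Hsp70 cycle passed the test in neither direction. Of 63 Hsp70 partners and Hsp40 co-chaperones, 26 were tested, and 0 were higher and 0 lower by edgeR. At an unadjusted p under 0.05, 0 were higher and 2 lower, against 5.72% and 5.65% of all rows. DESeq2 called 1 of the 26 lower, Hspa4l, against 2.66% of all rows. The median log2 fold change of the 26 was 0.03. Dnajc18 stood at 194 ± 14.3 and 199 ± 13.9 CPM and Dnajb2, a J-domain protein with ubiquitin interaction motifs, at 167 ± 37.3 and 153 ± 13.4 CPM (SD, n = 6 and 5). The constitutive Hsp70 gene Hspa8, the close relative Dnaja2 and the stress-induced Dnajb1 were among 22 rows of the list at 0 in every library. Of 30 other heat shock and cytosolic chaperone genes 9 were tested, with 0 higher and 0 lower by edgeR (0 and 0 at an unadjusted p under 0.05) and 0 by DESeq2. Cct5, a subunit of the chaperonin that folds actin and tubulin, stood at 211 ± 29.5 and 176 ± 27.1 CPM, and Fkbp5, a co-chaperone of Hsp90, at 22.1 ± 3.88 and 20.3 ± 4.85.

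Vcp encodes the hexameric ATPase that extracts ubiquitinated proteins (chr4:42979963-43000507, minus strand). Normal libraries 1 to 6 held 575, 520, 481, 677, 483 and 567 CPM. Colorectal cancer libraries held 514, 488, 588, 560 and 496 CPM, all inside the normal range. The means were 550 ± 73.8 and 529 ± 43.3 CPM (SD, n = 6 and 5), a log2 fold change of -0.06 (95% confidence interval -0.28 to 0.16, adjusted p = 0.921 by edgeR).

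Ube2j1 is an E2 enzyme anchored in the membrane of the endoplasmic reticulum, where it takes part in the degradation of misfolded proteins (chr4:33031416-33052363, plus strand). It lies furthest from the others, 7670 kb before Dnaja1. Normal libraries 1 to 6 held 192, 222, 200.2, 256, 217 and 222 CPM, and colorectal cancer libraries 211, 209, 224, 213 and 193 CPM. The colorectal cancer values again lay inside the normal range, with means of 218 ± 22.1 and 210.2 ± 11.2 CPM (SD, n = 6 and 5). The log2 fold change was -0.05 (95% confidence interval -0.24 to 0.13, adjusted p = 0.916 by edgeR).

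Vcp and Ube2j1 turned to higher values under totals alone, by 0.34 each, and both then passed (adjusted p = 0.0355 and 0.0366 by edgeR) while the median of all rows was 0.43. Their ratio to each other does not depend on that choice. It was 2.23 to 2.99 in normal and 2.33 to 2.63 in colorectal cancer libraries, with a geometric mean of 2.51 in each group (exact permutation p = 0.974, adjusted 0.974 over 4 pairs). Within groups the 2 rows also deviated together, with a Pearson correlation of 0.64 over 11 libraries that share their scaling factors. Bag1 and Vcp had the highest such value among the 7 genes, 0.67.

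Of 32 cofactors of the Vcp ATPase, 18 were tested, with 0 higher and 0 lower by edgeR (0 and 1 at an unadjusted p under 0.05) and 0 by DESeq2. Rad23b, which carries ubiquitinated proteins to the proteasome, stood at 236 ± 26.7 and 227 ± 12.8 CPM, and Aspscr1 at 84.8 ± 22.6 and 77.6 ± 34.6 (SD, n = 6 and 5). Rad23b, a gene of the same stretch, turned from -0.06 to 0.34 under totals alone. Of 39 genes of endoplasmic reticulum folding and degradation, 18 were tested, with 0 higher and 0 lower by edgeR and 0 by DESeq2. At an unadjusted p under 0.05, 2 of these were higher and 2 lower. The shares of all rows at that p, for both lists, were 5.72% higher and 5.65% lower. Ern1, the sensor Ire1 of the unfolded protein response, stood at 197 ± 30.0 and 189 ± 29.3 CPM, and Erp44, which retains proteins in the secretory pathway, at 126 ± 25.7 and 143 ± 11.2. The chaperones Hspa5 and Hsp90b1 and the transcription factors Xbp1 and Ddit3 were at 0 in every library.

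Ubap1 is a subunit of ESCRT-I that binds ubiquitin on membrane proteins bound for lysosomes (chr4:41348996-41390525, plus strand). Normal libraries 1 to 6 held 458, 434, 475, 458, 419 and 682 CPM. Colorectal cancer libraries 1, 2, 3, 4 and 6 held 393, 360, 256, 280 and 351 CPM, below every normal library. The means were 488 ± 97.4 and 328 ± 57.7 CPM (SD, n = 6 and 5), a log2 fold change of -0.57 (SE 0.15, 95% confidence interval -0.89 to -0.25). The adjusted p was 0.0754 by edgeR and did not pass. It passed by DESeq2 (adjusted p = 0.00786, with 2.66% of all rows lower) and with rows under a mean of 10 CPM left out (0.0430, 4.90% lower). With the repeated file kept the adjusted p was 0.0364 by edgeR (2.01% lower), but that setting counts 1 library as 2 and cannot stand as a pass. Within the Olfr648 division Ubap1 stood at 434 to 475 against 280 to 393 CPM (high counts) and at 419 to 682 against 256 CPM (low counts). Normal replicate 6 stood apart at 682 CPM, and without it the log2 fold change was -0.46 (adjusted p = 0.0988). Under totals alone it was -0.15.

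Ubap2, an RNA-associated protein with a ubiquitin-associated domain, lies 73.9 kb before Ubap1 on the other strand (chr4:41194313-41275144, minus strand). Its values were 140.4, 148, 135, 127, 141 and 155 CPM in normal and 115, 136, 129, 131 and 122 CPM in colorectal cancer libraries, and the groups overlapped. The means were 141 ± 9.79 and 126 ± 8.21 CPM (SD, n = 6 and 5), with a log2 fold change of -0.16 (95% confidence interval -0.33 to 0.01, adjusted p = 0.497 by edgeR). It turned to 0.24 under totals alone. Ubap2 varied least of the 7 within normal serum, with a coefficient of variation of 6.94%, against 20.6% for Dnajb5.

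The ratio of Ubap1 to Ubap2 was 3.26, 2.94, 3.52, 3.60, 2.96 and 4.39 in normal libraries. It was 3.43, 2.65, 1.98, 2.14 and 2.88 in colorectal cancer libraries, where replicate 1 lay inside the normal range. The mean log2 ratio differed by -0.41 (exact permutation p = 0.0346), which did not pass after adjustment over the 4 pairs (0.0693).

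Of 20 other ESCRT genes, 11 were tested, with 0 higher and 0 lower by edgeR. At an unadjusted p under 0.05, 1 was higher and 2 lower, against 5.72% and 5.65% of all rows. DESeq2 called 1 higher and 1 lower, against 1.81% and 2.66% of all rows. The 1 higher was Vps37a, another ESCRT-I subunit, at 11.8 ± 7.45 and 38.0 ± 10.9 CPM with no overlap (edgeR, difference of 1.69 on the log2 scale, SE 0.44, adjusted p = 0.0910). The 1 lower was Hgs. Mvb12a stood at 41.7 ± 9.70 and 43.4 ± 4.37 CPM (SD, n = 6 and 5). Of 14 relatives of Ubap2 and stress granule genes, 11 were tested and 1 was lower by edgeR, against 1.45% of all rows. It was Pabpc1, the main cytoplasmic poly(A)-binding protein, which fell by 1.25 on the log2 scale.

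**Figure D3:**
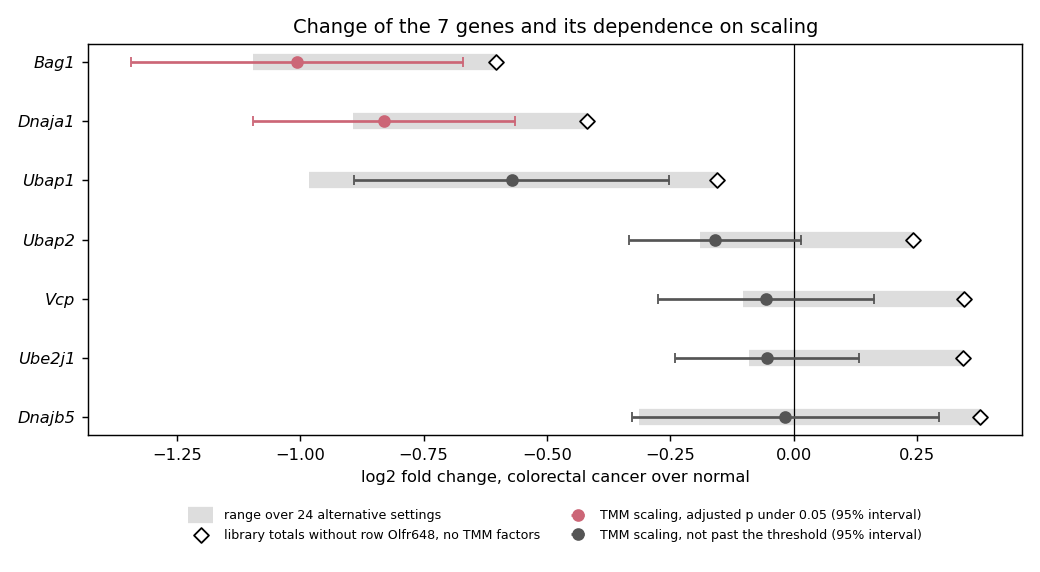
Log2 fold change of each gene, colorectal cancer over normal, with its 95% confidence interval, the range over 24 alternative settings in grey and the value under totals alone as a diamond. The intervals of Dnaja1, Bag1 and Ubap1 lie below 0, and the ranges of Dnajb5, Vcp, Ube2j1 and Ubap2 cross it.

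CPM were also divided by the length of merged exons, which was 8629 bases for Dnaja1 and 1349 for Bag1. That length joins all annotated exons of a gene, and the annotation used for counting is not known, so the order below depends on it. Before the division Dnaja1 stood above Bag1 in normal serum, at 1046 and 677 CPM. Per kilobase, the order in normal serum began with Bag1 at 502 ± 87.9, Ubap1 at 136 ± 27.2, Dnaja1 at 121 ± 18.2 and Vcp at 113 ± 15.2. Below them stood Ube2j1 at 61.8 ± 6.27, Ubap2 at 29.4 ± 2.04 and Dnajb5 at 5.61 ± 1.15 CPM per kb (SD, n = 6). Ubap1, Dnaja1 and Vcp, neighbours in that order, differed by less than the SD of Ubap1, and the other steps were larger than the SDs on either side. In colorectal cancer Bag1 remained first at 250 ± 52.9, and Vcp at 109 ± 8.92 stood above Ubap1 at 91.6 ± 16.1 and Dnaja1 at 68.2 ± 9.01 CPM per kb (SD, n = 5). Ube2j1, Ubap2 and Dnajb5 followed at 59.5 ± 3.16, 26.3 ± 1.71 and 5.54 ± 0.46 CPM per kb, and the step from Dnaja1 to Ube2j1 was within the SD of Dnaja1.

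From Dnaja1 to Vcp, 2.28 Mb of chromosome 4 hold 55 protein-coding genes, of which 24 were tested. Of these 4 were lower and 0 higher by edgeR, against 1.45% and 0.565% of all rows and 5.99% and 0.461% of the first 60 Mb. The 24 include the studied genes other than Ube2j1, and their median log2 fold change was -0.15. The 4 were Dnaja1, Bag1, Ube2r2 and Dcaf12, and rows between them did not pass. Ube2r2, an E2 enzyme of cullin ligases, went from 2638 ± 540.0 to 947 ± 383 CPM (log2 fold change -1.48, SE 0.25, adjusted p = 0.0107), and Dcaf12, a substrate receptor of such ligases, from 4048 ± 832 to 1407 ± 616 CPM (-1.52, SE 0.27, adjusted p = 0.0131 by edgeR). Chmp5, an ESCRT-III gene next to Bag1, named after its values were seen, differed by -0.15 (adjusted p = 0.788). Whether it differs from Bag1 in response was not tested.

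**Figure D4:**
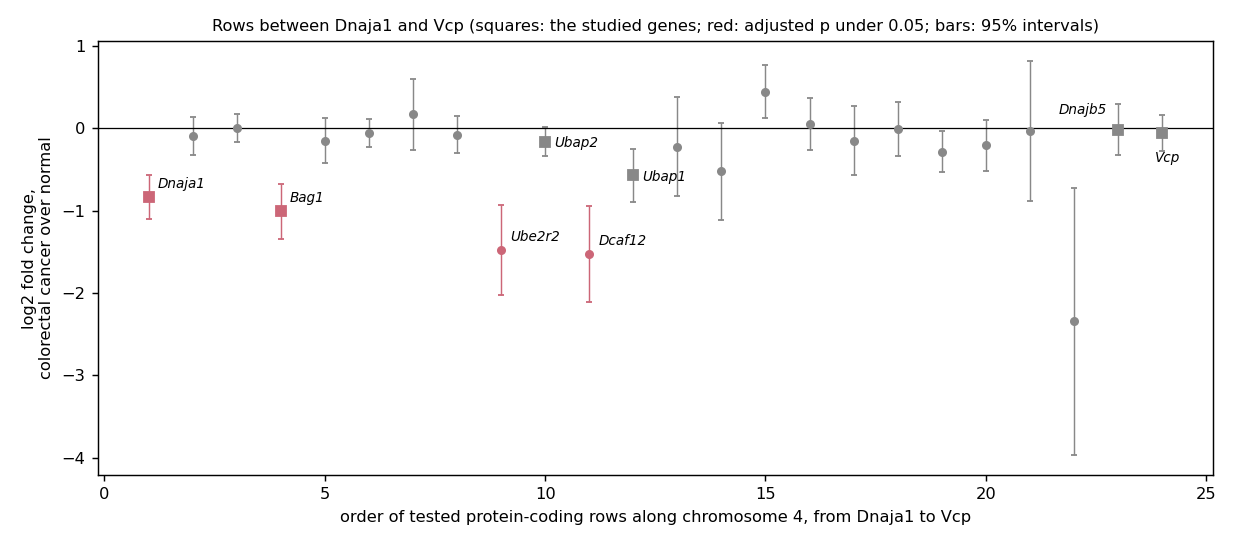
Log2 fold change with its 95% confidence interval for the 24 tested protein-coding rows from Dnaja1 to Vcp, in their order along chromosome 4; squares are the studied genes and red marks an adjusted p under 0.05. The 4 lower rows are not adjacent, and rows between them lie near 0.

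Beyond these, 20 other folding and ubiquitin genes of the first 60 Mb were all tested. Of them 2 were lower, the Ube2r2 and Dcaf12 just given, and 0 higher by edgeR (3 above and 4 below normal at an unadjusted p under 0.05, where 6.91% and 11.1% of the stretch were), with a median log2 fold change of -0.02. DESeq2 called 2 lower and 1 higher, Txn1, against 2.66% and 1.81% of all rows. Over the tested rows of the stretch, edgeR called 5.99% lower and 0.461% higher. Of 38 genes for ubiquitin and its E1 and E2 enzymes, 13 were tested and 2 were lower by edgeR, against 1.45% of all rows. These were Ube2r2 and Ube2s, an E2 enzyme of mitosis, which went from 225 ± 58.8 to 117 ± 20.8 CPM (-0.95, SE 0.18, adjusted p = 0.0170 by edgeR). The E1 gene Uba1 was among 14 rows of that list at 0 in every library.

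**Figure D5:**
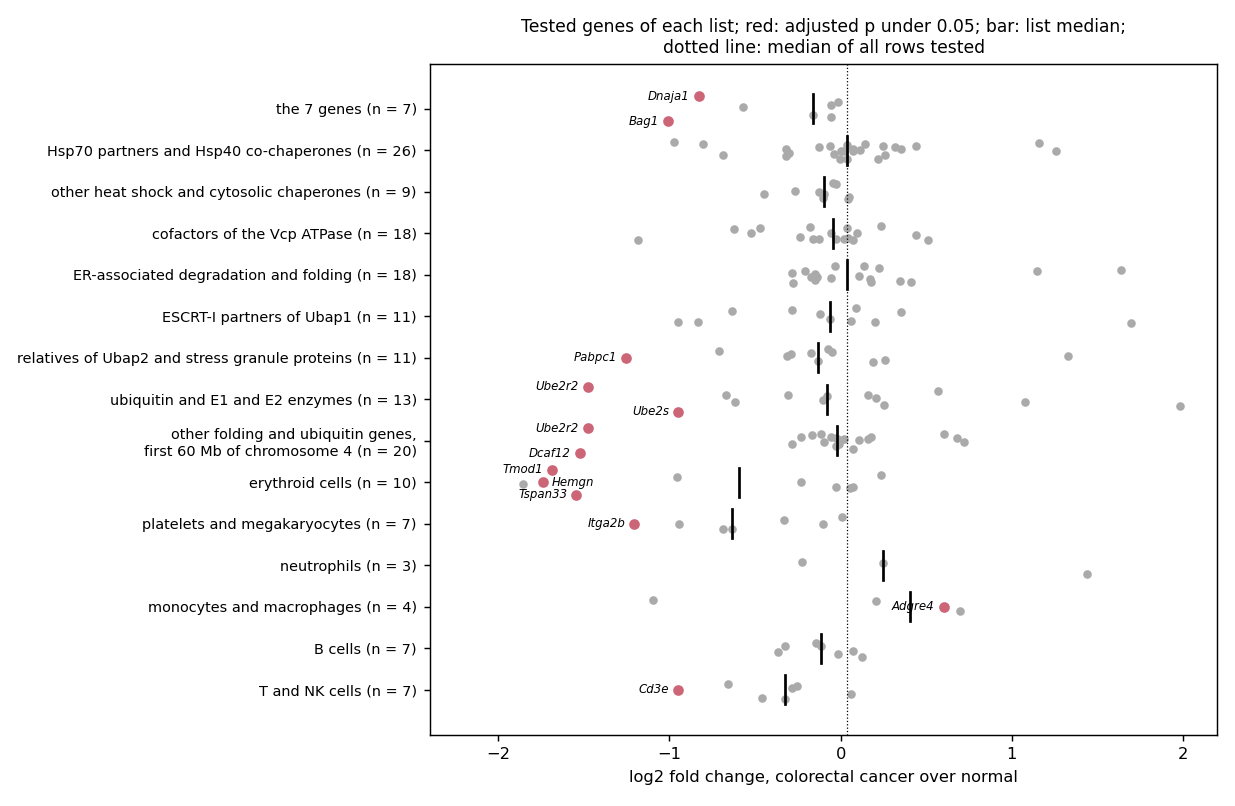
Log2 fold change of every tested gene of each list, colorectal cancer over normal, with the list's median as a bar, genes with an adjusted p under 0.05 in red, and the median of all rows as a dotted line. Lower genes appear among the 7 genes, Ubap2 relatives, ubiquitin enzymes, chromosome 4 genes and erythroid, platelet and T cell markers; the 1 higher gene is Adgre4.

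Some markers of red cells and platelets, and Cd3e, fell together with Dnaja1 and Bag1. Of 28 erythroid markers 10 were tested and 3 were lower: Hemgn, a nuclear protein of red cell precursors (51.0 ± 10.7 to 15.3 ± 5.82 CPM, log2 fold change -1.74), Tmod1, a cap of actin filaments in the red cell skeleton (188 ± 53.7 to 58.7 ± 24.4, -1.69), and Tspan33, named after its values were seen. DESeq2 called 4 of the 10 lower, and 5 were lower at an unadjusted p under 0.05. Over all rows 1.45% were lower by edgeR, 2.66% by DESeq2 and 5.65% at that unadjusted p. The erythroid list summed to 541 to 935 CPM in normal and 131 to 335 in colorectal cancer libraries, while Hbb-bs, Hbb-bt and Alas2 were among its 11 rows at 0. Hemgn and Tmod1 lie in the same stretch of chromosome 4. Platelet markers summed to 7400 to 10661 and 5380 to 7197 CPM, with 1 of 7 lower, Itga2b, the platelet integrin (-1.21), and with Pf4 and Ppbp at 0. DESeq2 called 3 of the 7 lower, and 3 were lower at an unadjusted p under 0.05. T and NK cell markers summed to 364 to 536 and 209 to 331 CPM, with 1 of 7 lower, Cd3e, a signalling subunit of the T cell receptor (-0.95). Cd3e made up most of that sum, and without it the list summed to 35.05 to 85.0 and 50.4 to 61.8 CPM, which overlap. Their part in the lower Dnaja1 and Bag1 was not tested.

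Sums of markers of other cells stood higher or overlapped, and the higher neutrophil sum rested mostly on Mmp8. Neutrophil markers summed to 106 to 384 CPM in normal and 414 to 717 in colorectal cancer libraries, with 3 of 17 tested. None passed edgeR's threshold, and DESeq2 called 1 higher, against 1.81% of all rows. At an unadjusted p under 0.05 by edgeR, 1 was above and 0 below, against 5.72% and 5.65% of all rows. Mmp8, a neutrophil collagenase, made up most of that sum and stood at 206 ± 119 and 558 ± 119.8 CPM (adjusted p = 0.134 by edgeR). Mmp9 stood at 20.2 ± 4.05 and 23.8 ± 3.88, and Fcgr3 at 5.82 ± 1.85 and 4.96 ± 1.27. S100a8 and S100a9 were among 10 rows of that list at 0. Of 4 tested monocyte markers 1 was higher by edgeR, against 0.565% of all rows. It was Adgre4, an adhesion receptor of macrophages, higher by 0.60. With 1 library left out its adjusted p by edgeR reached up to 0.115. The monocyte list summed to 19.3 to 29.6 and 29.0 to 38.3 CPM, with Csf1r at 0. B cell markers summed to 861 to 1377 and 985 to 1093 CPM, with 0 of 7 called by edgeR (0 at an unadjusted p under 0.05 and 0 by DESeq2). Pax5 stood at 725 ± 146 and 716 ± 37.8 CPM and Cd72 at 274 ± 38.7 and 254 ± 42.8, and both lie in the first 60 Mb of chromosome 4, while Ms4a1 was at 0.

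Rows with the most similar pattern were sought by the Pearson correlation of log2 CPM over the 11 libraries with group means removed, among 2944 rows with a mean of 10 CPM or more. Libraries share their scaling factors, and these values describe likeness only. Bag1 was most like Smndc1 (0.93), Nadk2 (0.90) and mt-Ts1 (0.90), and of these Smndc1 and Nadk2 were also lower in colorectal cancer, by -0.75 and -0.92 on the log2 scale. Dnaja1 was most like Tex10 (0.85), Rnf40 (0.82) and Mblac1 (0.81), none of which passed the test. Vcp was most like Samd8 (0.96), Ube2s (0.94) and Dapk2 (0.93), and Ube2j1 like Kcnk4 (0.94), Tstd3 (0.90) and Dgka (0.89). Ubap1 was most like B3gnt3, H1f3 and Slc44a1 (0.96, 0.96 and 0.95), Ubap2 like Fbxl18, Hif1an and Gspt1 (0.89, 0.86 and 0.86), and Dnajb5 like Aldh3a2, Zbtb25 and Agap3 (0.92, 0.84 and 0.84).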

How the data were processed

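Serum RNA (mouse, total RNA, TRIzol) went into stranded libraries, per the labels' protocols. The deposited files hold whole-number counts per gene symbol, read here as raw. HISAT2, StringTie, Trim Galore and mm10 appear in the submitters' processing notes with no version or role; the counter, its annotation and its treatment of strand were not given in the sources used here. Files of colorectal cancer replicates 5 and 6 were identical (the next closest 2 files differ in 12482 rows), and 0 rows lacked a name.

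Rows were filtered with filterByExpr by group, scaled by TMM and tested with edgeR 4.0.16 (robust glmQLFit and glmQLFTest, R 4.3.3, 2-sided), with group as the only term. The p-values measure the spread between these libraries. Pair ratios used a pseudocount of 0.5 counts and SciPy 1.17.1. Positions are from GENCODE M21 on mm10 (49972 symbols with a single position). On simulated data with 200 of 9565 rows changed, the fit recovered 31% of 2-fold and 67% of 4-fold changes, and 3.92% of its calls were unchanged rows. Genes, lists and tests were chosen with earlier results of these data known. Besides the 7 genes and the rows most like each, the text names from each list up to 2 genes past the threshold per direction, or the 2 most abundant where none passed. Alternatives were DESeq2 1.42.0 and its size factors, other filters and scalings, a replicate block, a fold above 1.5, the repeated file kept and each library left out. Reading only libraries with high or low Olfr648 counts was chosen after seeing the data. Libraries of the same replicate number had correlations of deviations from -0.072 to 0.026, which showed no pairing but cannot exclude one.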

Additional observations from a re-analysis of the deposited data

Results flagged for a closer look

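The Ubap1 level of normal replicate 6, 682 CPM, stood apart from the other 5 normal libraries, which held 419 to 475 CPM. Its gap to the next library was large for the range of the group by Dixon's criterion, which chance passes in about 1 of 20 groups, and it was the 1 such value in 22 groups examined. Without this library Ubap1 differed by -0.46 on the log2 scale, with an adjusted p of 0.0988 by edgeR.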

How the results depend on the processing

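Dnaja1 and Bag1 were lower in all 24 settings and passed the test in 21 and 20 of them. These include the repeated file kept, which counts 1 library as 2. Leaving out 1 library gave -0.89 to -0.77 for Dnaja1 (adjusted p up to 0.0205) and -1.10 to -0.93 for Bag1 (up to 0.0238) by edgeR. With a fold above 1.5 tested, Dnaja1 at -0.83 and Bag1 at -1.01 did not pass (adjusted p = 0.572 and 0.241). Among libraries with high Olfr648 counts they did not pass at -0.77 and -0.95, where fewer libraries were fitted, and among those with low counts they stood at -0.77 and -0.76, with 1 colorectal cancer library assumed to vary like the others, a fit too small to judge a call. Bag1 did not pass with the replicate block at -1.08 (adjusted p = 0.0509 by edgeR), while Dnaja1 passed at -0.87 (0.0442). Whether replicate numbers pair the libraries is not established. Ubap1 passed at -0.57 by DESeq2 and -0.59 with a mean of 10 CPM, and leaving out 1 library gave -0.65 to -0.46. With the repeated file kept it was also under the threshold, at -0.56, but that setting counts 1 library as 2.

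Dnajb5 was above 0 without the filter (0.0226), with Olfr648 left out (0.0060), under totals alone (0.38), with the Olfr648 division as a covariate (0.11), with TMM factors from the chromosome 4 stretch (0.0290), with the repeated file kept (0.00098), with the replicate block (0.0474) and among libraries with high Olfr648 counts (0.35). Leaving out 1 library gave -0.0862 to 0.0589. Vcp turned to 0.34 under totals alone, 0.0376 with the covariate and 0.0447 and 0.0273 among libraries with high and low Olfr648 counts, and to between -0.102 and 0.00839 with 1 library left out. Ube2j1 turned to 0.34 under totals alone and 0.0115 among libraries with low counts, Ubap2 to 0.24 and Rad23b to 0.34 under totals alone. The cause of these turns was not tested.

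The 7 genes had 1 lower with the replicate block and 0 with a fold above 1.5 tested or among libraries with high Olfr648 counts. Under totals alone 2 of them were higher, where 17.0% of all rows were. Over all 9565 rows tested, lower and higher calls were 254 and 173 by DESeq2 and 68 and 13 with the covariate. They were 59 and 6 with the replicate block and 0 and 1 with a fold above 1.5 tested. Among libraries with high Olfr648 counts they were 27 and 34 of 10345 rows. Higher calls were 82 of 3572 rows with a mean of 10 CPM, 112 of 9311 with the repeated file kept and 1383 of 8134 under totals alone. Leaving out 1 library gave 89 to 139 lower and 16 to 67 higher rows. In the first 60 Mb of chromosome 4, lower rows were 8 without the filter, 4 with the replicate block, 3 among libraries with high Olfr648 counts and 0 among those with low counts or with a fold above 1.5 tested. Higher rows there were 9 by DESeq2, 3 without the filter, with a mean of 10 CPM, with TMM factors from the stretch or with the repeated file kept, 2 with Olfr648 left out, 72 under totals alone and 0 with the covariate, the replicate block, a fold above 1.5 or either side of the division. With 1 library left out they were 0 to 3.

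The log2 ratio Vcp to Ube2j1, -0.00013, turned to 4.59e-05 and 0.0014 with pseudocounts of 1 and 5 and lay between -0.0353 and 0.0503 with 1 library left out. The ratio of Ubap1 to Ubap2 lay between -0.52 and -0.32 with 1 library left out and was -0.82 among libraries with low Olfr648 counts, where that of Dnaja1 to Dnajb5 was -0.46. Dnajb5 had the fewest counts of the 7 genes, with 143 to 528 per library.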
